A study of Arabidopsis thaliana with 24 samples.

Results

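The response of expanding Col-0 leaves to water deficit was read from 6 of the 24 RNA-seq libraries of the study, 3 from plants under deficit and 3 from well-watered plants. All 16522 genes with a mean of at least 10 normalized counts over the 12 expanding-leaf libraries were tested, of 37336 identifiers in the expanding-leaf table. Col-0 is the standard wild-type accession of Arabidopsis thaliana. Deficit plants were held at 30% media water content, and well-watered plants between 65 and 100%. Leaves were collected 14 to 15 days after they emerged, from plants grown under an 8 h photoperiod, and each replicate is RNA from 10 pooled plants. The expanding leaves of gtl1-4, a knockout of the trihelix transcription factor GTL1, were sampled under the same 2 watering regimes with 3 replicates each, and they enter the model and one comparison at the end. The deficit was held by weighing and rewatering, so it is not a drying-out.

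Plants meet a shortage of water through the hormone abscisic acid (ABA). PYR/PYL/RCAR receptors bind ABA and then inhibit clade A protein phosphatases 2C, which frees SnRK2 kinases to activate the ABF transcription factors. ABFs bind the ABA response element, whose core is ACGTG, in the promoters of genes for late embryogenesis abundant (LEA) proteins and other protectants. Leaf cells that lose turgor also make compatible solutes such as proline, and growth slows because cell expansion needs water uptake through aquaporins and loosening of the wall.

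Library totals, recovered as estimated reads from the step of each library's values, ran from 16.1 to 26.5 M reads in the 6 Col-0 libraries, of which 4.74 to 7.78 M fell on nuclear genes. Deficit replicate 2 stood apart with 78.6% of its signal on chloroplast genes, against 66.8 to 70.5% in the other Col-0 libraries. Well-watered replicate 3 had 18276 genes above 0, against 19275 to 20137 in the other Col-0 libraries, and 298 genes at the value of 1 read, against 569 to 909. List counts that move by over 1.5 times without these libraries are given both ways. Mesophyll markers (RBCS1A, CA1, RCA and LHCB1.3) summed to 248554 to 261894 normalized counts in the deficit libraries and 214743 to 268732 in the well-watered libraries, and 1 of the 4, RCA, was called. Markers of flowers and the shoot meristem were near 0 (AP1, PI and STM at 0), with a sum of 0 to 0.866 under deficit and 1.54 to 13.1 under full watering. In bulk RNA, fewer cells of a type and less RNA per cell cannot be told apart.

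Under deficit, 1021 genes rose and 1210 fell, which is 6.18% and 7.32% of the genes tested (limma on log2 of the value plus 1, Benjamini-Hochberg adjusted p under 0.05, both directions 13.5%). The median log2 fold change over all genes was 0.02, close to no shift, on values already scaled by library. A change given below for a gene without a unit is its log2 fold change, deficit over well-watered, and in every called gene given library by library the 2 groups do not overlap. Most changes were moderate, with a median of 0.98 among the genes that rose and -0.83 among those that fell. At least 2-fold were 491 rises (2.97%) and 446 falls (2.7%). At the strong end 139 genes (0.841%) rose at least 4-fold and 81 (0.49%) fell that far, and at 8-fold the counts were 55 (0.333%) and 16 (0.0968%). In most called genes the 3 deficit libraries lay wholly on one side of the 3 well-watered ones, in 990 of the rises and 1183 of the falls, against a background of 14% of genes wholly above and 14.8% wholly below. In all, 446 of the rises (43.7%) and 568 of the falls (46.9%) kept their call in all 6 fits that leave out 1 Col-0 library. Without deficit replicate 2 and well-watered replicate 3 together, 647 genes rose and 769 fell, among them 525 of the 1021 rises and 665 of the 1210 falls, and all 2231 kept their sign.

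**Figure D1:**
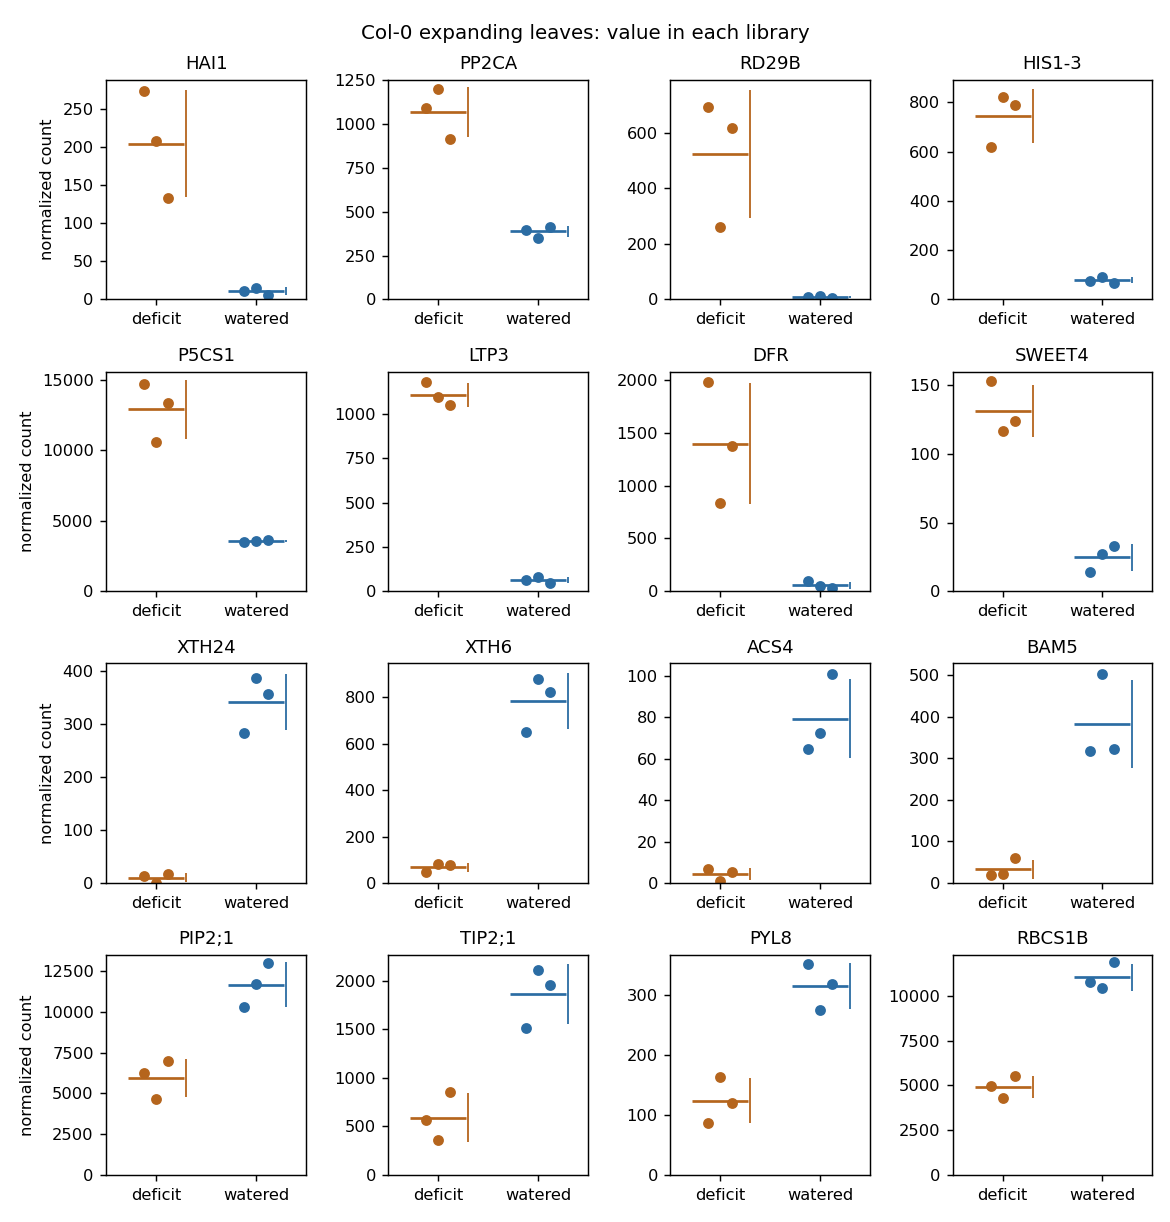
Normalized counts (linear axes from 0) of 16 genes in the 3 deficit libraries and the 3 well-watered libraries of Col-0; each point is 1 library, the horizontal line is the group mean and the vertical line beside it spans 1 SD to either side. The deficit points of HAI1, RD29B and DFR lie above all well-watered points and those of XTH6, XTH24 and PYL8 below them.

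Phosphatases that brake ABA signalling rose. They belong to clade A and hold the SnRK2 kinases inactive, and 6 of the 7 tested members rose, with a list median of 1.40 on the log2 scale. HAI1, a phosphatase strongly induced by ABA, had 273, 208 and 132 normalized counts in the deficit libraries, against 11.5, 15.5 and 5.23 in the well-watered libraries. Every deficit library lay far above every well-watered one (log2 fold change 4.18, SE 0.41, adjusted p = 9.11e-06). Its relative HAI2 had 158, 146 and 127 normalized counts under deficit and 28.5, 16.7 and 12.2 under full watering, again without overlap (log2 fold change 2.93, SE 0.41, adjusted p = 0.000232). PP2CA, which also acts on guard cell channels, had 1091, 1198 and 917 normalized counts under deficit and 399, 352 and 414 under full watering. Its groups were far apart and each was tight (log2 fold change 1.45, SE 0.16, adjusted p = 2.84e-05). HAB1 (log2 fold change 1.40), ABI2 (1.32) and ABI1 (0.94) rose as well, and HAB2 was the exception at 0.03 (adjusted p = 0.920). All 6 calls held in every fit without 1 Col-0 library and also without both libraries that stood apart.

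Receptor genes did not rise. Of the 6 tested ABA receptors none rose, 2 fell, and all 6 estimates lay below 0, with a median of -0.21. PYL8 had 87.1, 162 and 120.3 normalized counts in the deficit libraries, against 350.1, 275 and 318 in the well-watered libraries. The highest deficit value stayed below the lowest well-watered one (log2 fold change -1.38, SE 0.19, adjusted p = 0.000232). PYL4 also fell (-0.94, adjusted p = 0.0350), and its call was lost without any 1 of the 6 libraries, where the highest adjusted p was 0.0865. Downstream of the phosphatases, 4 of the 7 listed kinase and ABF genes tested rose and none fell. SNRK2-8, a SnRK2 kinase gene outside that list, fell (log2 fold change -1.58). ABF3, a bZIP factor that binds the ABA response element, had 169, 148 and 242 normalized counts under deficit and 74.6, 61.9 and 73.2 under full watering (log2 fold change 1.37, SE 0.19, adjusted p = 0.000242). Its partner ABF4 rose by 1.03 and the kinase gene SNRK2.3 by 0.79. ABF1 rose by 0.69, but its call was lost without deficit replicate 2 or well-watered replicate 2, where the highest adjusted p was 0.107. OST1, the kinase that closes stomata in response to ABA, had a log2 fold change of 0.70 that missed the threshold (adjusted p = 0.0507).

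Genes that set the ABA level rose on both sides of the balance, with 4 of 11 rising and none falling. NCED3 makes the committed cleavage in ABA synthesis and is the usual drought-induced gene of the pathway. It had 342, 296 and 268 normalized counts in the deficit libraries, against 150.0, 193 and 186 in the well-watered libraries. The groups did not overlap, but the shift was below 2-fold (log2 fold change 0.78, SE 0.17, adjusted p = 0.00735). CYP707A2 hydroxylates ABA and so starts its breakdown. It had 124, 145 and 94.4 normalized counts under deficit and 21.5, 34.5 and 36.6 under full watering (log2 fold change 1.95, SE 0.34, adjusted p = 0.00136). The other calls were AAO3, the oxidase of the last synthetic step (0.49), and CYP707A4 (0.87). Both were unstable: for AAO3 its call was lost without any 1 library other than well-watered replicate 1, where the highest adjusted p was 0.153, and for CYP707A4 its call was lost without any 1 library other than well-watered replicate 3, where the highest adjusted p was 0.142.

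Some genes of protective proteins were among the largest rises, and others of the same families did not pass the test. LEA proteins are small hydrophilic proteins that accumulate in drying seeds and stressed leaves. Of 15 listed LEA and dehydrin genes, 11 passed the filter and 6 rose, none fell. Another group, the 25 tested genes whose annotated product names LEA, had 3 rises (12%) and 4 falls (16%). That group leaves out some of the listed genes that rose. Its match on the name does not separate protectants from other proteins that carry it. Over all genes tested, 6.18% rose and 7.32% fell. LEA7 had 43.5, 22.1 and 43.3 normalized counts under deficit and 0, 0 and 0 under full watering. It is listed at 0 in all 3 well-watered libraries, so no fold is given (adjusted p = 0.000725). The same held for AT3G02480, another LEA family gene, which had 69.9, 60.3 and 61.5 normalized counts under deficit and 0, 0 and 0 under full watering (adjusted p = 0.00198). RAB18, a dehydrin used as a marker of ABA response, had 219, 92.2 and 143 normalized counts under deficit and 22.3, 5.95 and 32.2 under full watering (log2 fold change 3.03, SE 0.66, adjusted p = 0.00624). LEA14 had 1330.2, 1121 and 1078 normalized counts under deficit and 485, 483 and 404 under full watering (log2 fold change 1.36, SE 0.18, adjusted p = 0.000122), and COR15A, a chloroplast stroma protectant, rose by 0.86. XERO2 rose by 1.59, but its call was lost without deficit replicate 1 or well-watered replicate 3, where the highest adjusted p was 0.0659. The dehydrins ERD10 (0.66, adjusted p = 0.0941), ERD14 (0.10, 0.683) and COR47 (-0.24, 0.625) did not pass the test.

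Among 11 classical dehydration markers, 4 rose and none fell. RD29B, a hydrophilic protein gene whose promoter is driven mainly through ABA, had 693, 262 and 618 normalized counts in the deficit libraries, against 10.0, 13.1 and 6.10 in the well-watered libraries. Deficit replicate 2 was the lowest of its group and still far above the highest well-watered value (log2 fold change 5.55, SE 0.51, adjusted p = 4.07e-06). Its tandem neighbour RD29A, which also answers cold and drought without ABA, had 3347, 1319.8 and 3156 normalized counts under deficit and 1793, 1288 and 1249.8 under full watering. Deficit replicate 2 lay inside the well-watered range, and the gene missed the threshold (log2 fold change 0.76, SE 0.27, adjusted p = 0.0747). HIS1-3 encodes a drought-inducible linker histone. It had 620.2, 822 and 791 normalized counts under deficit and 74.6, 91.7 and 67.1 under full watering. Both groups were tight (log2 fold change 3.24, SE 0.18, adjusted p = 8.25e-08). KIN1, a cold- and ABA-inducible small protein gene, had 381, 354 and 436 normalized counts under deficit and 37.7, 60.7 and 43.6 under full watering (log2 fold change 3.04, SE 0.22, adjusted p = 4.28e-07). KIN2 stands next to it and is a near copy, with 3600.1, 5207 and 5029 normalized counts under deficit and 5219, 3970.2 and 4447 under full watering (log2 fold change 0.01, adjusted p = 0.978). Reads shared by such copies are divided by the authors' counting program, so the split between KIN1 and KIN2 is uncertain, as it is between COR15A and COR15B. RD22, a seed-protein-like marker of ABA response, rose by 0.99.

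To be shown, a promoter from the LEA and dehydration lists had to hold ACGTG, so its presence there was fixed by the choice. Promoters are given for the 3 genes of these lists with the largest called rise that met this condition, and for DFR. Each is the 300 bases upstream of the annotated gene start, 5′ to 3′ on the gene's own strand, from the TAIR10.1 reference. Capitals mark ACGTG or its reverse complement CACGT, the palindrome CACGTG, and CCGAC, the core of the drought- and cold-responsive DRE, or its reverse complement.
RD29B chr5:21236721-21237020, plus strand: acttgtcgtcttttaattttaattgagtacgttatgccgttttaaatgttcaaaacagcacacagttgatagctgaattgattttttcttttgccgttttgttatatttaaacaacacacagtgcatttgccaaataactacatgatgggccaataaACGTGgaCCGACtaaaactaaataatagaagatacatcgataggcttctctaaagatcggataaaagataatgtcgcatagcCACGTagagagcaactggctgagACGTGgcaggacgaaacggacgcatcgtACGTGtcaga
LEA7 chr1:19619424-19619723, plus strand: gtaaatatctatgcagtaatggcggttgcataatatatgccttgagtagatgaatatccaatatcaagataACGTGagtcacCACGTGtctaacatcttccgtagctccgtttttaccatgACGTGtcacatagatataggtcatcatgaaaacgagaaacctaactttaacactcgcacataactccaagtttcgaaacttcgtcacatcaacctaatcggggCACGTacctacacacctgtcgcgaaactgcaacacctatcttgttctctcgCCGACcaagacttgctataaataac
KIN1 chr5:5209417-5209716, plus strand: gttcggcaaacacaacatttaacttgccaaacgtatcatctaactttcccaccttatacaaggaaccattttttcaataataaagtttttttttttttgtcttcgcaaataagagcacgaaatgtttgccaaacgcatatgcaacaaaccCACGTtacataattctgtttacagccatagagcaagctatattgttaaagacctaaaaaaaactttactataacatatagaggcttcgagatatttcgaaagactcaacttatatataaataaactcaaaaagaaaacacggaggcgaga
DFR chr5:17166033-17166332, minus strand: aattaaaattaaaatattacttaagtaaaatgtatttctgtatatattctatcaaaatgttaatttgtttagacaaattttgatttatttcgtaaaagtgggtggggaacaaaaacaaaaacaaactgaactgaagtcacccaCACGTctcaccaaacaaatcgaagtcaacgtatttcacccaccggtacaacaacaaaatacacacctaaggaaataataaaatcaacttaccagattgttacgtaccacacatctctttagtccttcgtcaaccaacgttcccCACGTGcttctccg
The RD29B window held 4 matches to ACGTG, at 143, 61, 38 and 10 bases before the gene start, and 1 to CCGAC at 136. In the LEA7 window there were 5 matches to ACGTG on either strand, of which the palindrome CACGTG counts on both, and 1 to CCGAC. KIN1 had a single ACGTG, on the opposite strand, 150 bases upstream. DFR, an anthocyanin enzyme gene described with its pathway, had 3 matches to ACGTG, including those within its CACGTG. Windows that overlap another annotated gene were left out, which removed LEA4-5, RAB18 and XERO2, and the HIS1-3 window held no ACGTG.

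The same 3 motifs were counted on both strands in 18869 such windows of the genome. ACGTG stood in 25.9% of all windows and 25.9% of those of tested genes, CACGTG in 6.89% and 8.11%, and CCGAC in 12.3% and 13.6%. Among 644 windows of genes that rose, 38.4% held ACGTG and 15.8% CACGTG. Genes that fell had ACGTG in 25.4% and CACGTG in 7.44% of 954 windows. The share with ACGTG was 43.6% of 330 windows among rises of at least 2-fold, 45.3% of 106 at 4-fold and 60% (27 of 45) at 8-fold. Among falls of at least 8-fold it stood in 50% (8 of 16). CCGAC differed little, at 15.5% among rises and 15.2% among falls. Mean base composition was close, with 30.3% G and C in windows of genes that rose, 29.3% in those that fell and 29.6% in those of all tested genes. These are counts of letters and say nothing of binding.

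Transcription factors of the dehydration response rose in part, with 6 of 16 tested members rising and 1 falling. HB7, a homeodomain-leucine zipper factor induced by ABA, had 641, 552 and 592 normalized counts in the deficit libraries, against 101, 102 and 88.9 in the well-watered libraries. Its groups were tight and wide apart (log2 fold change 2.60, SE 0.17, adjusted p = 2.57e-07). GBF3, a bZIP factor of the G-box family, rose by 2.91, the NAC factors RD26 and ATAF1 by 1.77 and 1.40, and HB12, the close relative of HB7, by 1.34. MYB102 had 39.6, 16.0 and 11.3 normalized counts under deficit and 6.15, 0 and 0.872 under full watering, and without deficit replicate 1 its adjusted p was 0.0538. HB5 was the gene that fell (-0.61), and its call was lost without deficit replicate 1 or well-watered replicate 1, where the highest adjusted p was 0.125. The cold regulators CBF2 (-0.57, adjusted p = 0.518) and CBF3 (0.43, 0.357) did not pass the test. Outside the lists, HSFA6A, a heat shock factor, had 102, 139 and 125 normalized counts under deficit and 0, 7.14 and 1.74 under full watering (log2 fold change 5.43, SE 0.71, adjusted p = 0.000128). Where the Col-0 groups did not overlap and the 12 libraries averaged 20 normalized counts or more, the 10 largest rises also included LEA4-5 (6.35), the ATPase gene DAA1 (5.77), AT5G15500, an ankyrin repeat protein gene (5.30), AT4G08570, of the heavy metal transport family (5.11), AT2G35070, which has no assigned function (5.46), and the inositol transporter INT2 (4.84).

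Genes of proline synthesis rose, 3 of the 8 tested genes of proline metabolism in all, and 1 fell. P5CS1, the drought-induced synthase of the rate-limiting step, had 14716, 10596 and 13358 normalized counts in the deficit libraries, against 3462, 3583 and 3654 in the well-watered libraries. Each group was narrow and they did not overlap (log2 fold change 1.84, SE 0.13, adjusted p = 4.28e-07). Its housekeeping paralogue P5CS2 rose by 0.65, and P5CR, the reductase of the next step, by 0.97. The breakdown gene P5CDH had a log2 fold change of 0.38 (adjusted p = 0.187), and the transporter PROT1 fell by 0.64 on the log2 scale. PRODH, a listed gene that missed the filter, averaged 4.63 normalized counts under deficit and 15.8 under full watering. With it, the 9 listed genes of proline metabolism took 0.280%, 0.212% and 0.259% of nuclear signal in the deficit libraries. Their shares were 0.0931%, 0.0889% and 0.0883% in the well-watered ones. Galactinol and raffinose genes had 1 rise and 2 falls among 7, or 1 of each without the 2 libraries that stood apart. The galactinol synthase GOLS2 rose by 1.18, its paralogue GOLS3 (log2 fold change -1.46) and the dark-induced DIN10 (-3.37) fell, and the stress-related raffinose synthase RS5 was at -0.18 (adjusted p = 0.528).

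Sugar transporters changed in both directions, and 14 of 19 tested genes were called, with 8 rising and 6 falling against the backgrounds of 6.18% and 7.32% (7 and 4 without the 2 libraries that stood apart). SWEET proteins let sucrose or hexoses leave cells. SWEET15, also known from senescence, had 186, 13.5 and 161 normalized counts under deficit and 4.62, 9.53 and 0 under full watering, so deficit replicate 2 was close to the well-watered values although the call stood in all 6 fits (log2 fold change 4.29, SE 0.91, adjusted p = 0.00551). SWEET4 had 153, 117 and 124 normalized counts under deficit and 13.8, 27.4 and 33.1 under full watering (log2 fold change 2.43, SE 0.36, adjusted p = 0.000343). SWEET12, which exports sucrose to the phloem, rose by 1.69, SWEET13 by 0.88 and the vacuolar importer TMT2 by 1.04. SUC2 loads sucrose into the phloem companion cell. It rose by 0.83, but its call was lost without deficit replicate 1 or well-watered replicate 1, where the highest adjusted p was 0.0744. The companion cell proton pump AHA3, which powers that loading, had 3064, 3084 and 2769 normalized counts under deficit and 1183, 1269 and 1513 under full watering (log2 fold change 1.17, SE 0.15, adjusted p = 0.000128). SUC2 and AHA3 were the list of companion cell markers and summed to 4460 to 4870 normalized counts under deficit and 1943 to 2665 under full watering, and the part of cell proportions in this was not tested. The vacuolar and hexose carriers ERD6 (-2.06), SWEET2 (-1.34), SWEET17 (-0.78) and ERDL6 (-0.70) fell. TMT1 (-0.81) and SUC1 (-0.65), of the same families as TMT2 and SUC2, fell too.

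Starch genes changed in both directions, with 3 rises and 4 falls among 19 breakdown genes (6 and 4 without the 2 libraries that stood apart). Among beta-amylases, which release maltose, BAM3 (-1.17) and the regulatory BAM9 (-1.50) fell, as did BAM5 (-3.63). Debranching enzyme ISA3 (0.76) and maltose exporter MEX1 (0.73) rose. On the synthesis side APL3, an ADP-glucose pyrophosphorylase large subunit, had 1099, 689 and 987 normalized counts under deficit and 365, 412 and 298 under full watering (log2 fold change 1.35, SE 0.20, adjusted p = 0.000297), and SBE2.1, a branching enzyme, rose by 0.99, with the other 8 tested genes not called. ASN1, an asparagine synthetase induced by low sugar and darkness, had 1076, 721 and 909 normalized counts under deficit and 183, 276 and 266 under full watering (log2 fold change 1.90, SE 0.19, adjusted p = 1.23e-05), whereas the dark-induced SEN1 was at -0.33 (adjusted p = 0.659).

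**Figure D2:**
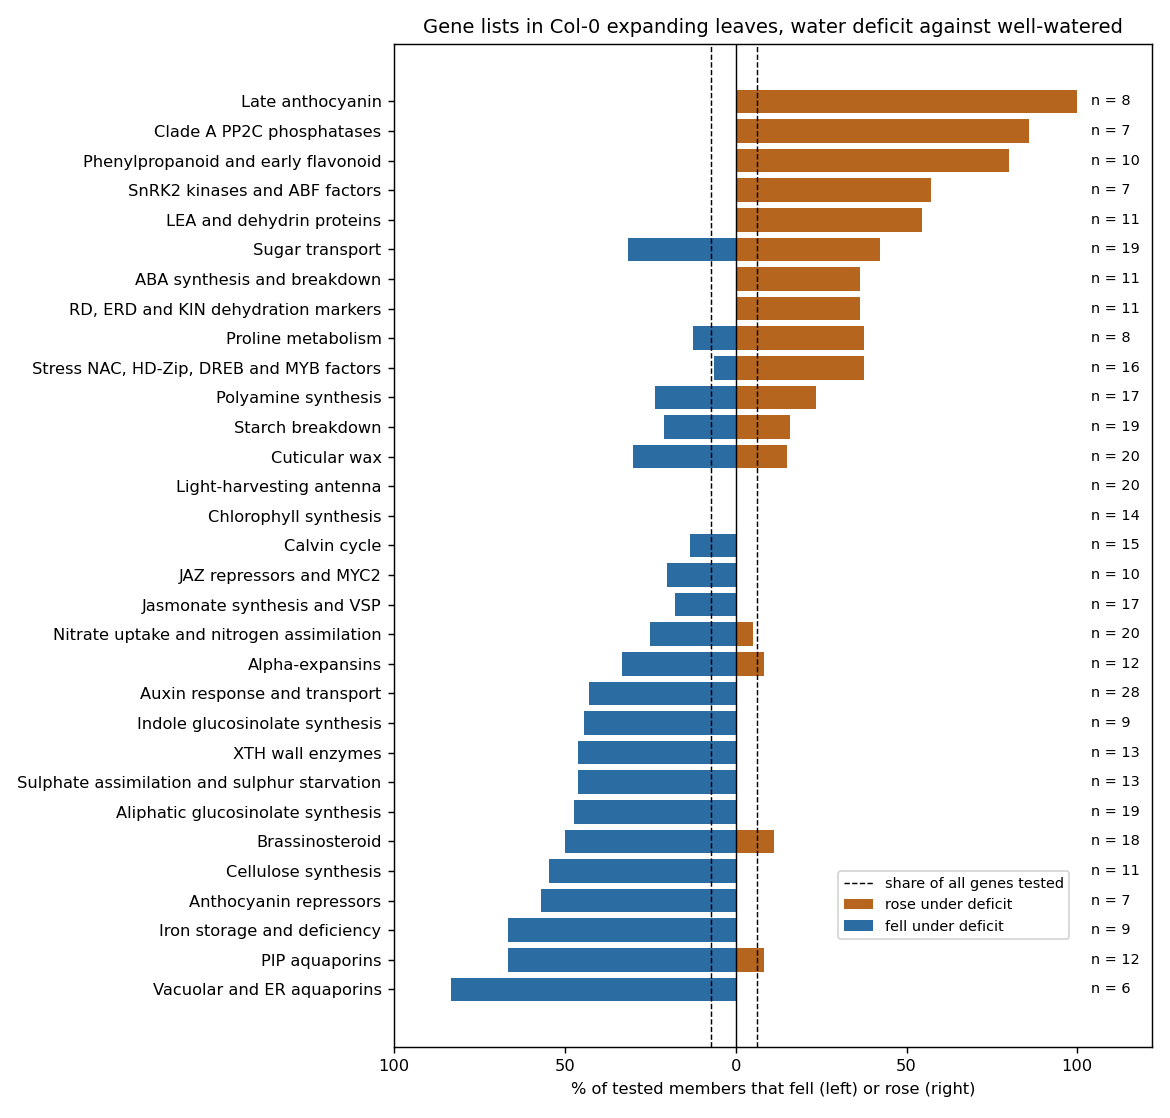
Percent of the tested members of each gene list that rose (bars to the right) or fell (bars to the left) under water deficit in Col-0, with n the number tested and dashed lines at the share over all genes tested (6.18% rose, 7.32% fell). All 8 late anthocyanin genes and 6 of 7 clade A phosphatases rose, and 5 of 6 vacuolar and endoplasmic reticulum aquaporins fell.

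Anthocyanin genes rose. Anthocyanins are the red and purple flavonoids of stressed leaves, made by early flavonoid enzymes shared with flavonols and by late enzymes of their own. All 8 late genes rose, with a median log2 fold change of 3.71, and 8 of 10 early genes rose with a median of 0.98. DFR, the first late enzyme, had 1983, 838 and 1377 normalized counts in the deficit libraries, against 93.1, 45.3 and 29.6 in the well-watered libraries. Deficit replicate 2 was the lowest of its group, and the groups were wide apart (log2 fold change 4.69, SE 0.33, adjusted p = 4.28e-07). Late genes as a group took 0.0798%, 0.0368% and 0.0560% of nuclear signal under deficit, against 0.00753%, 0.00570% and 0.00278% under full watering. The glycosyltransferase UGT79B1 (4.16) and the malonyltransferase gene 5MAT (3.14) rose with it. In the early part CHS, the entry enzyme, had 6018, 3505 and 4488 normalized counts under deficit and 1846, 2376 and 1792 under full watering (log2 fold change 1.20, SE 0.20, adjusted p = 0.000874), F3H rose by 1.81, and TT7, the 3′-hydroxylase that leads towards cyanidin, by 3.02. Genes of the steps before flavonoids that did not pass the test were PAL2 at -0.08 (adjusted p = 0.776) and 4CL3 at 0.13 (adjusted p = 0.814). Of the regulators, MYB75 had 366, 301 and 345 normalized counts under deficit and 137, 135 and 61.9 under full watering and its bHLH partner TT8 had 42.2, 12.3 and 29.4 normalized counts under deficit and 3.08, 1.19 and 0 under full watering, both without overlap. The listed repressors went the other way, with none of 7 rising and 4 falling. LBD38 (-2.34) and LBD37 (-0.64), which are induced by nitrate, were among the falls. MYB7 (2.63) and MYB3 (0.73), MYB repressor genes outside that list, rose. Trichome markers, summed over the list, ran from 106 to 207 normalized counts under deficit and from 83.4 to 122 under full watering, with GL1 at 0. TTG2, a factor of trichome and seed coat development, was the 1 of 3 tested trichome markers that was called. It rose by 3.11, but its call was lost without deficit replicate 2, where the adjusted p was 0.0504, and the part of trichomes was not tested.

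Most tested water channel genes fell. PIP aquaporins carry water across the plasma membrane, and 8 of 12 tested members fell and 1 rose, with a median log2 fold change of -0.83; without the 2 libraries that stood apart 5 fell. As a family they took 0.273%, 0.214% and 0.319% of nuclear signal under deficit and 0.419%, 0.462% and 0.490% under full watering. PIP2;1 had 6239, 4638 and 6958 normalized counts under deficit and 10272, 11719 and 13026 under full watering (log2 fold change -0.99, SE 0.17, adjusted p = 0.00100). PIP1;3 (-1.12), PIP2;7 (-0.98) and the near copies PIP2;2 (-1.09) and PIP2;3 (-1.17), whose split of shared reads is uncertain, fell by similar amounts. PIP2;5 alone rose (63.3, 54.1 and 71.9 normalized counts under deficit and 18.5, 17.9 and 30.5 under full watering, log2 fold change 1.49). In the vacuolar membrane, where TIP aquaporins sit, all 4 tested TIP genes fell and so did the endoplasmic reticulum channel SIP2;1. TIP1;1 had 337, 175 and 511 normalized counts under deficit and 787, 1147 and 1199 under full watering. The groups were wide apart (log2 fold change -1.72, SE 0.27, adjusted p = 0.000651). TIP2;1 (-1.73), TIP2;2 (-1.48), SIP2;1 (-1.24) and TIP1;2 (-0.95) completed the list of falls, and all 5 calls held in every fit without 1 Col-0 library.

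Many genes of enzymes that loosen and build the growing wall fell. XTH enzymes cut and rejoin xyloglucan, and 6 of 13 tested members fell and none rose, with a median of -1.31. XTH6 had 46.2, 81.2 and 77.9 normalized counts in the deficit libraries, against 649, 876 and 824 in the well-watered libraries. The deficit values were far lower (log2 fold change -3.53, SE 0.23, adjusted p = 2.57e-07). XTH24 had 13.2, 0 and 16.4 normalized counts under deficit and 283, 386 and 356 under full watering (log2 fold change -5.76, SE 0.73, adjusted p = 0.000103), and XTH7 (-2.14) and XTH8 (-1.31) also fell. The other 7 did not pass the test, with log2 fold changes between -1.78 for XTH22 and 0.85 for XTH5. Among alpha-expansins, which loosen walls without cutting them, 4 of 12 fell and 1 rose, or 3 fell and none rose without the 2 libraries that stood apart. The falls were led by EXPA8 (-1.84) and EXPA6 (-1.07). EXPA9 rose by 2.31, but its call was lost without deficit replicate 2, where the adjusted p was 0.0621. In cellulose synthesis 6 of 11 genes fell and none rose, or 3 fell without the 2 libraries that stood apart. CESA1 (-0.67), CESA5 (-0.66) and CESA6 (-0.47) of the primary wall fell, and so did the associated COB (-0.77), KOR1 (-0.60) and CSI1 (-0.58). The secondary wall subunits CESA4, CESA7 and CESA8 lay between 0.14 and 0.48 with no call. Calls in this family were small and 3 of 6 held in every fit without 1 Col-0 library: for CESA1 its call was lost without deficit replicate 2 or well-watered replicate 1, 2 or 3, where the highest adjusted p was 0.101, for CESA6 its call was lost without deficit replicate 2 or 3 or well-watered replicate 2 or 3, where the highest adjusted p was 0.0890, and for KOR1 its call was lost without deficit replicate 2, where the adjusted p was 0.0536. BXL1, a beta-xylosidase of the wall, had 10.6, 14.8 and 42.4 normalized counts under deficit and 135, 218 and 233 under full watering (log2 fold change -3.26, SE 0.50, adjusted p = 0.000522).

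Many genes of the growth hormones auxin and brassinosteroid fell. Of 28 tested auxin genes, 12 fell and none rose, and 27 of the 28 estimates lay below 0, with a median of -0.66. SAUR15, an early auxin-induced gene, had 35.6, 103 and 58.0 normalized counts under deficit and 184, 117 and 245 under full watering (log2 fold change -1.52, SE 0.33, adjusted p = 0.00624). The influx carrier AUX1 (-0.96) and the Aux/IAA repressor genes IAA17 (-0.86), IAA7 (-0.77) and IAA16 (-0.73) fell. Brassinosteroid genes showed 9 falls and 2 rises among 18. BEE3, a growth-promoting bHLH gene, had 9.24, 24.6 and 20.8 normalized counts under deficit and 66.2, 44.1 and 104 under full watering (log2 fold change -1.93, SE 0.44, adjusted p = 0.00890), and PRE1 (-1.52), BR6OX2 of the last synthetic step (-1.54), the transcription factor gene BES1 (-0.91) and the receptor gene BRI1 (-0.58) also fell. The 2 rises, DET2 (1.05) and DWF4 (0.72), are synthesis genes: for DET2 its call was lost without any 1 library other than well-watered replicate 2, where the highest adjusted p was 0.0927, and for DWF4 its call was lost without deficit replicate 2 or 3 or well-watered replicate 2 or 3, where the highest adjusted p was 0.105. Without the 2 libraries that stood apart, 9 auxin genes and 6 brassinosteroid genes fell and none rose.

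Gibberellin genes moved both ways, with 4 rises and 3 falls among 19, or 2 and 3 without the 2 libraries that stood apart. GASA1, a small secreted protein gene that is gibberellin-responsive, had 19.8, 19.7 and 40.7 normalized counts under deficit and 212, 250.1 and 252 under full watering (log2 fold change -3.19, SE 0.29, adjusted p = 4.04e-06). RGL1, a DELLA repressor, fell (log2 fold change -1.21), while the receptor gene GID1B (1.77) and the synthesis gene GA3OX1 (1.11) rose with less stable calls: for GID1B its call was lost without deficit replicate 2 or 3 or well-watered replicate 1 or 3, where the highest adjusted p was 0.175, and for GA3OX1 its call was lost without deficit replicate 1 or 3 or well-watered replicate 1 or 2, where the highest adjusted p was 0.144. Ethylene genes had 3 falls and no rise among 14. ACS4, which makes the ethylene precursor, had 6.60, 1.23 and 5.19 normalized counts under deficit and 64.6, 72.6 and 101 under full watering (log2 fold change -4.07, SE 0.49, adjusted p = 6.19e-05), and ACO4, an oxidase of the next step, fell too (-0.78). Cytokinin oxidases CKX4 (-1.88) and CKX6 (-1.42) fell, among 3 falls and no rise in 12 genes.

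Surface lipid genes changed in both directions. Cuticular wax limits water loss through the epidermis. WSD1, the wax ester synthase, had 115, 106 and 113 normalized counts in the deficit libraries, against 13.8, 25.007 and 13.9 in the well-watered libraries. The groups were well separated (log2 fold change 2.65, SE 0.27, adjusted p = 1.56e-05). CER1, which makes the alkanes that dominate leaf wax, rose by 1.63, whereas its partner CER3 fell (log2 fold change -0.64). The elongase genes KCS20 (-1.01), KCS1 (-0.99) and KCS9 (-0.98) fell, and KCS2 rose by 1.18, although its call was lost without deficit replicate 3, where the adjusted p was 0.0563. The count was 3 rises and 6 falls in 20, or 3 rises and 2 falls without the 2 libraries that stood apart. Listed lipid transfer proteins, small secreted proteins of the epidermal wall, had 3 rises and no fall among 5 tested. A wider group, the 32 tested genes with a lipid transfer or similar product name, had 7 rises and 7 falls. LTP3 had 1184, 1096 and 1049 normalized counts under deficit and 60.8, 81.0 and 48.8 under full watering (log2 fold change 4.13, SE 0.46, adjusted p = 2.96e-05), LTP6 rose by 2.85 and LTP1 by 0.58.

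Some genes of sulphur and glucosinolate metabolism fell. Glucosinolates are the sulphur-rich defence compounds of the cabbage family. None of the 19 tested aliphatic genes rose and 9 fell (median -0.66), and none of 9 indole genes rose and 4 fell (median -0.69). The calls were fragile, with 3 of 9 and 2 of 4 held in every fit without 1 Col-0 library, and 5 and 3 called without the 2 libraries that stood apart. GS-OX1, which oxidizes the side chain, had 323, 207 and 424 normalized counts under deficit and 766, 625 and 477 under full watering (log2 fold change -1.0005, adjusted p = 0.00659). MYB34, a regulator of the indole branch, fell (log2 fold change -0.82). On the hydrolysis side, the atypical myrosinase PEN2 (-0.81) and the exporter PEN3 (-0.98) fell, and NSP1, which turns breakdown to nitriles, had 346, 149 and 325 normalized counts under deficit and 103, 136 and 96.7 under full watering (log2 fold change 1.20, SE 0.27, adjusted p = 0.00715). The main myrosinase TGG1 was at 0.04 (adjusted p = 0.927). Sulphate assimilation had 6 falls and no rise among 13 (3 falls without the 2 libraries that stood apart), with 2 calls held in every fit without 1 Col-0 library: APR3, the reductase that controls the pathway, had 132, 108 and 158 normalized counts under deficit and 329, 243 and 322 under full watering (log2 fold change -1.16, SE 0.17, adjusted p = 0.000297), and GGCT2;1, which recycles glutathione, had 0, 6.15 and 1.73 normalized counts under deficit and 16.2, 16.7 and 19.2 under full watering (log2 fold change -2.76, SE 0.66, adjusted p = 0.0110).

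The calls among defence hormone genes were all falls. The share that fell was above the 7.32% of all genes tested for the jasmonate synthesis list and the JAZ and MYC2 list. It was close to that background for the salicylic acid list, and these differences were not tested. JAZ9 (-1.10) and JAZ6 (-1.01) fell among 10 tested JAZ and MYC2 genes, all 10 estimates lying below 0. Jasmonate synthesis had 3 falls in 17, or 1 fall and 1 rise without the 2 libraries that stood apart. None of the 3 falls held in every fit without 1 Col-0 library. Of the 17 estimates 15 lay below 0, with a median of -0.49. In the salicylic acid list PR5, a thaumatin-like pathogenesis protein, had 21.1, 9.84 and 44.2 normalized counts under deficit and 126, 116 and 134 under full watering (log2 fold change -2.51, SE 0.43, adjusted p = 0.00118), and it was the only call among 13.

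Nutrient genes changed at a few points. NIA2, the main nitrate reductase, had 3014, 2155 and 3451 normalized counts in the deficit libraries, against 5453, 6764 and 5003 in the well-watered libraries. Its groups did not overlap (log2 fold change -1.01, SE 0.20, adjusted p = 0.00319). The nitrate transporters NRT1.11 (-1.84) and NPF6.2 (-1.13) and the cytosolic glutamine synthetase GLN1;2 (-0.86) fell, in a list with 5 falls and 1 rise among 20. Iron genes fell, 6 of 9 with no rise, or 3 without the 2 libraries that stood apart. NAS4, which makes the iron chelator nicotianamine, had 93.7, 40.6 and 76.2 normalized counts under deficit and 198, 159.6 and 197 under full watering (log2 fold change -1.46, SE 0.29, adjusted p = 0.00321), and NAS3 (-1.87) and the phloem iron transporter OPT3 (-0.97) fell with it. FRO2, an iron reductase used here as a root marker, rose by 1.75, and the root list summed to 41.6 to 59.4 normalized counts under deficit and 9.53 to 23.5 under full watering, with the root transporters IRT1 and PHT1;1 at 0. In the polyamine pathway, 4 of 17 genes rose and 4 fell, or 2 and 4 without the 2 libraries that stood apart. ADC2, the stress-induced arginine decarboxylase, had 639, 394 and 499.5 normalized counts under deficit and 164, 226 and 165 under full watering (log2 fold change 1.45, SE 0.19, adjusted p = 0.000157), while the S-adenosylmethionine synthetase genes MAT4 (-1.19) and MAT3 (-0.81) and the arginase gene ARGAH2 (-0.81), which competes for arginine, fell. None of the 5 polyamine oxidase genes was called.

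Few genes of photosynthesis were called. None of 20 antenna genes was called, with a median of 0.12, and none of 14 chlorophyll synthesis genes. Of 15 Calvin cycle genes 2 fell, or 1 without the 2 libraries that stood apart. RBCS1B, a Rubisco small subunit gene, had 4951, 4288 and 5505 normalized counts under deficit and 10773, 10438 and 11889.8 under full watering (log2 fold change -1.17, SE 0.13, adjusted p = 2.49e-05), while RBCS1A was at -0.25 (adjusted p = 0.501). These copies share most of their sequence, so the split of reads between them is uncertain. RCA, which activates Rubisco, fell by 0.77 on the log2 scale, but its call was lost without deficit replicate 2 or well-watered replicate 3, where the highest adjusted p was 0.0532. Chloroplast-encoded genes took 71.9% ± 6.04 of the signal under deficit and 69.7% ± 1.23 under full watering (SD, n = 3 each), a difference of 2.19 percentage points (exact two-sided permutation p = 0.9, where 0.1 is the smallest p that 3 against 3 allows). That difference was -1.14 points without deficit replicate 2. With psbA left out the shares were 39.0% ± 1.01 under deficit and 35.5% ± 3.75 under full watering, a difference of 3.53 points (exact two-sided permutation p = 0.3). Of 87 chloroplast genes tested, 1 rose and none fell, and 22 of the 87 estimates were positive, with a median log2 fold change of -0.29.

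Calls in other stress classes were few in number. In the 25 antioxidant genes 2 rose and 1 fell, or 1 rose and none fell without the 2 libraries that stood apart, and 1 of the 3 calls held in every fit without 1 Col-0 library. The aldehyde dehydrogenase gene ALDH7B4, known for drought induction, had 1237, 851 and 1002 normalized counts under deficit and 328, 463 and 352 under full watering (log2 fold change 1.43, SE 0.17, adjusted p = 5.31e-05). Heat shock genes had 3 rises among 7 tested of 19 listed (1 without the 2 libraries that stood apart), with HSFC1 at 1.60 the call that held in every fit without 1 Col-0 library. Their share of rises was 42.9%, against 6.18% of all genes tested, a difference that was not tested. Chlorophyll breakdown genes, which mark senescence, had 1 fall (CLH1, -1.26) and no rise among 10, or 1 of each without the 2 libraries that stood apart. The touch-induced calmodulin-like gene TCH3 fell (log2 fold change -2.13), the only call among 9. In the circadian list LHY, a morning factor, had 195, 133 and 119 normalized counts under deficit and 272, 326 and 324 under full watering (log2 fold change -1.07, SE 0.19, adjusted p = 0.00149), and its partner CCA1 had a log2 fold change of 0.44, for which its call was lost without any 1 library other than well-watered replicate 2, where the highest adjusted p was 0.158. Of 16 guard cell genes 2 fell, or 1 without the 2 libraries that stood apart, and the 5 guard cell markers summed to 183.5 to 214 normalized counts under deficit and 198 to 301 under full watering. The potassium channel KAT1 fell (log2 fold change -0.90), and AHA2 fell by 0.71 on the log2 scale, but its call was lost without deficit replicate 2 or well-watered replicate 1 or 3, where the highest adjusted p was 0.0671. Proliferation markers were not called (4 tested of 11) and summed to 60.3 to 107 normalized counts under deficit and 59.5 to 128 under full watering.

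Among nuclear genes changed at least 2-fold, the 10 with the highest mean normalized counts, a scale not corrected for gene length, were split 5 to 5. P5CS1, CHS and AHA3 among the rises have been described. FAD2, the endoplasmic reticulum desaturase that makes linoleate, had 9118, 12454 and 7116 normalized counts under deficit and 3654, 5051 and 3375 under full watering (log2 fold change 1.23, SE 0.21, adjusted p = 0.00100). ARFA1E, a small GTPase of vesicle transport, rose by 1.16, but its call was lost without well-watered replicate 3, where the adjusted p was 0.0552. On the falling side, besides RBCS1B, NIA2 and MAT4, the gene AT2G45180 for a small protease inhibitor and lipid transfer family protein had 2569, 2919 and 3741 normalized counts under deficit and 10707, 9544 and 11748 under full watering (log2 fold change -1.81, SE 0.15, adjusted p = 1.57e-06). The germin-like protein gene AT1G72610 fell (log2 fold change -2.00). Of the 10 largest falls by the same rule, those not yet described were UMAMIT17, of an amino acid exporter family (-4.20), the acid phosphatase family gene AT5G44020 (-3.41), the receptor-like kinase gene CRK41 (-3.17) and AT2G14247, of unknown function (-3.16).

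**Figure D3:**
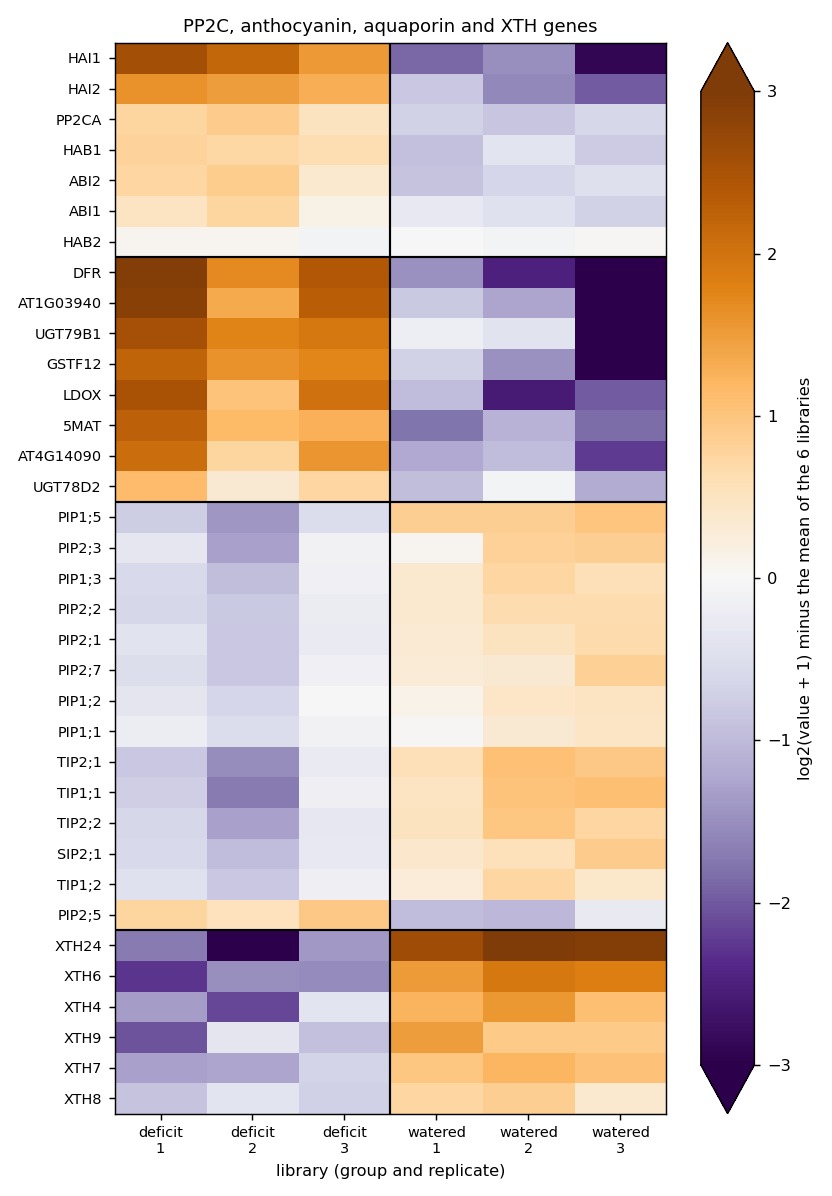
Deviation of log2 of the value plus 1 from the mean of the 6 Col-0 libraries, for clade A phosphatase (top), late anthocyanin, aquaporin and XTH genes (bottom), with the 3 deficit libraries left of the 3 well-watered ones; colours are capped at the ends of the scale. HAB2 is near 0 in all libraries, and deficit replicate 2 is paler than its group for most late anthocyanin genes and darker for most aquaporins.

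In gtl1-4 leaves most of the genes called in Col-0 had the same sign. GTL1 itself had 421, 571 and 518 normalized counts under deficit and 778, 739.5 and 951 under full watering in Col-0 (log2 fold change -0.71, SE 0.16, adjusted p = 0.00903), and in gtl1-4 123, 128 and 157 normalized counts in its deficit libraries and 257, 322 and 236 in its well-watered ones. All 6 libraries of the mutant lay below all 6 of Col-0. In the mutant 390 genes (2.36%) rose and 397 (2.4%) fell, 4.76% in all. The order of the 2 genotypes by number of calls depended on the fit: with array weights 1766 genes were called in Col-0 and 1772 in gtl1-4, and with each genotype fitted alone 1131 in Col-0 and 1265 in gtl1-4. Of the genes that rose in Col-0, 295 (28.9%) were called and 951 (93.1%) had the same sign in gtl1-4, and of those that fell, 330 (27.3%) were called and 1152 (95.2%) had the same sign. The median log2 fold change of the rises was 0.98 in Col-0 and 0.49 in gtl1-4, and of the falls -0.83 and -0.47; since the genes were picked by their Col-0 values, the smaller medians in the mutant are a description only. No gene passed the test of the difference between the 2 responses with limma at an adjusted p of 0.05; the lowest adjusted p was 0.181 and 948 genes (5.74%) had an unadjusted p under 0.05. The median SE of that difference was 0.31 on the log2 scale, against 0.22 for the Col-0 response.

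Clade A phosphatase genes had 6 rises in each genotype, with a median of 1.40 in Col-0 and 1.17 in gtl1-4. XTH genes had 6 falls in Col-0 and 5 in gtl1-4, with medians of -1.31 and -1.24. Late anthocyanin genes had 8 rises in Col-0 and 5 in gtl1-4, with medians of 3.71 and 2.02. Aliphatic glucosinolate genes had 9 falls in Col-0 and none in gtl1-4 (medians -0.66 and -0.24), and auxin genes 12 and 1 (medians -0.66 and -0.28). None of these genes passed the test of the difference between the genotypes, and the differences between the counts were not tested. DFR came nearest to it among the genes described, with 4.69 in Col-0 and 2.38 in gtl1-4.

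**Figure D4:**
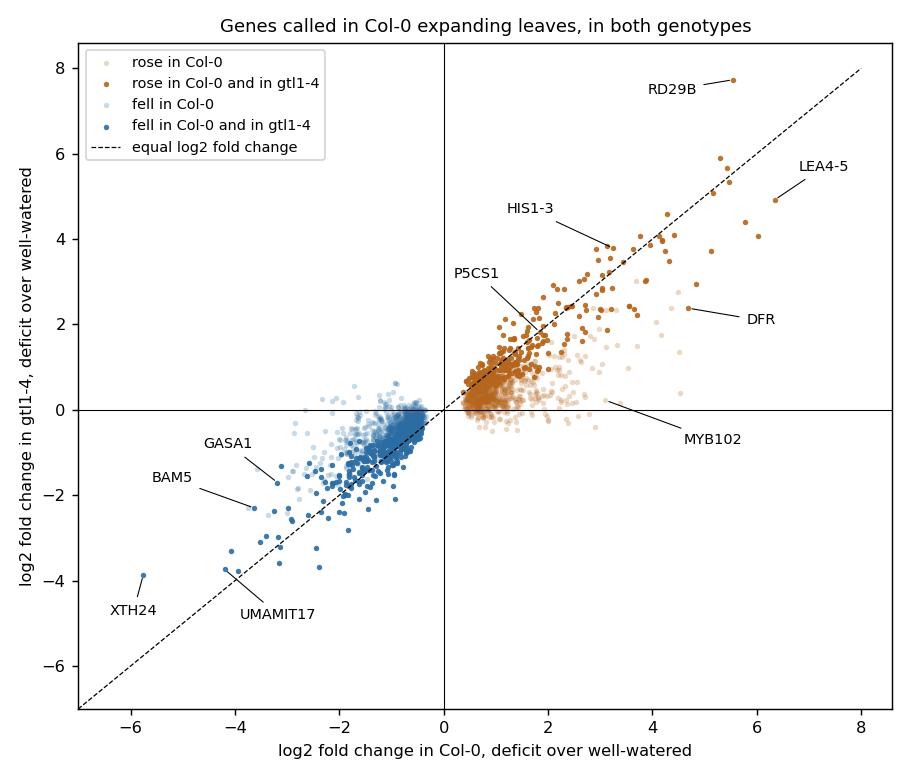
Log2 fold change under water deficit in gtl1-4 (vertical) and in Col-0 (horizontal) of the genes called in Col-0, 1 point per gene; dark points were called in both genotypes and the dashed line marks equal values. Same-sign points number 951 of 1021 rises and 1152 of 1210 falls, and the genes were chosen by their Col-0 values.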

How the data were processed

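Total RNA of leaves was sequenced with an Illumina mRNA kit, per the labels. Tools listed in the submitters' processing notes are STAR, RSEM, Trim Galore, Trimmomatic, FastQC and bcl2fastq, with the build TAIR10 and no versions. For the normalization method and the use of strand, nothing is given in the sources used here. The authors deposited normalized counts, which are a signal. By their values they are estimated counts divided by 1 factor per library: 97.0% to 97.9% of the low values per library are whole multiples of a step, within 0.002 of it. RSEM shares reads among near-identical copies. Because values are not raw counts, no count model was used. Values were taken as log2 of the value plus 1, which understates the change of low genes, and tested with limma 3.58.1 (R 4.3.3; empirical Bayes with a variance trend) over the 12 expanding-leaf libraries in 4 groups, keeping genes whose mean reached 10, with Benjamini-Hochberg adjustment over all 16522 and a threshold of 0.05. The fit was tested on simulated data. Each "±" is an SD over 3 replicates. Replicates are pools of 10 plants, so p-values measure the spread between pools. Other software was Python 3.11.15, pandas 2.3.3 and matplotlib 3.10.9. Promoter windows came from TAIR10.1.

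The members and gene lists were chosen with earlier results of these data known. Named genes are GTL1, the 10 largest called rises and falls where the Col-0 groups did not overlap and the 12 libraries averaged 20 or more, the 10 most abundant nuclear genes changed at least 2-fold, and members of the lists. Alternatives covered the pseudocount, the filter, the scaling, the weights, the groups in the fit, a replicate block and each library left out. Leaving out deficit replicate 2 and well-watered replicate 3 together was chosen after seeing the data. Emerging leaves were not used here, because their table was scaled separately.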

Additional observations from a re-analysis of the deposited data

How the results depend on the processing

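The number of genes called under deficit in Col-0 was 2231 and stayed within 1.5 times of it under both other pseudocounts, the filters, median-of-ratios and quantile scaling, voom and array weights, a fit without the variance trend and the replicate block. It was 1131 when the fit held the Col-0 libraries alone, and 1416 without well-watered replicate 3 and deficit replicate 2 together. Leaving out 1 library at a time gave 1462 to 2140 calls, fewest without deficit replicate 1. In gtl1-4, where 787 genes were called, array weights gave 1772 (1766 in Col-0), a fit of the mutant libraries alone 1265, and the fit without both Col-0 libraries that stood apart 1344, with 389 to 559 when 1 mutant library was left out. Calls of a difference between the responses were 0, with 0 to 2 when 1 library was left out. DFR and AT4G01390 were called without well-watered replicate 1 of Col-0 (adjusted p 0.0421 and 0.00764), AT1G18020 and TRM13 without well-watered replicate 2 (4.62e-05 and 0.0206), and AT3G22235 without well-watered replicate 2 of gtl1-4 (0.00343). The chloroplast difference of 2.19 points ranged from -1.14 to 4.75 with 1 library left out. The cause of these shifts was not tested.

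Same-numbered libraries were compared for pairing. Their deviations from the group means correlated at -0.048, -0.011 and 0.038 between the Col-0 groups, so no pairing was seen in the values. Whether the numbers mark a shared batch is not stated in the sources used here, and these correlations cannot decide it. With the replicate block, 1999 genes were called in Col-0, 689 in gtl1-4 and 0 for the difference.

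Of the 178 genes named by the rule, 133 kept their call in all 6 fits without 1 Col-0 library and none changed sign under any setting. Those that lost the call numbered 34 in the fit of Col-0 alone, 35 without both libraries that stood apart, 13 to 30 without 1 library, 19 with array weights, 18 without the variance trend, 12 with no filter, 9 with voom weights, 8 with quantile scaling, 7 with the block and 2 with a pseudocount of 0.5. Median shifts of all genes under the 3 scalings were 0.016, 0.011 and 0.015. Quantile and median-of-ratios scaling align the libraries by design, so these small medians say nothing of how stable the calls are.

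Low genes had larger errors: the median SE was 0.40 on the log2 scale for genes with a mean of 10 to 50 and 0.15 for those above 1000. Fold changes of genes near 0 in one group depend on the pseudocount.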

Other observations

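Genes grouped by the wording of their annotated product give groups outside the lists. A group misses family members whose product is worded otherwise, so its counts are not those of a whole family. Of 36 SAUR-like auxin-responsive genes 19 fell and 1 rose (median log2 fold change -1.19), and of 25 arabinogalactan proteins, glycoproteins of the wall and plasma membrane, 14 fell and none rose (median -0.67). Pectin lyases and pectinesterases, which trim wall pectin, had 18 falls and 3 rises among 70 (median -0.29), tubulins 7 falls and no rise among 27, and leucine-rich repeat kinases 25 falls and 4 rises among 118. Of the transporter groups, nodulin MtN21 proteins had 8 falls and 1 rise among 25, and amino acid transporters 8 falls and 2 rises among 35. The major facilitator group had 12 falls and 8 rises among 90. Genes whose product text names ABC transporters had 2 of each among 46. That text misses members: ABCG31 (2.46), ABCC9 (1.13) and ABCG3 (0.56) rose, and ABCB21 (-2.32), ABCG19 (-0.65) and ABCB19 (-0.58) fell. GDSL lipases had 9 falls and 2 rises among 38. For comparison, 7.32% of all genes tested fell and 6.18% rose, and the families were described after the results were known.

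Cytochrome P450 genes had 8 rises and 10 falls among 82. Ribosomal proteins had 15 rises and 10 falls among 348 (median 0.02), proteasome subunits 1 of each among 33, and AP2/ERF factors 1 fall and no rise among 34. Pentatricopeptide repeat proteins, which process organelle RNA, had 6 rises and 1 fall among 206 with a median of 0.30, and F-box proteins 6 rises and no fall among 141 with a median of 0.24. NB-LRR resistance genes had 8 rises and 1 fall among 96. The share of genes that fell grew with level: 3.65% at a mean of 10 to 50 normalized counts, 5.96% from 50 to 200, 11.7% from 200 to 1000 and 15.3% above 1000, where 4.68% rose. The median SE ran from 0.40 in the lowest class to 0.15 in the highest. Mitochondrial genes had a median log2 fold change of -0.33 over 54 genes, with 1 fall (limma, adjusted p under 0.05) and 14 genes at an unadjusted p under 0.05.

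In promoter windows the ACGTG core was found for 5 of 7 clade A phosphatases, 11 of 15 stress transcription factors, 8 of 8 JAZ and MYC2 genes and none of 12 PIP aquaporins, against 25.9% of the windows of all tested genes. The JAZ and MYC2 list had no rise. These counts describe letters in short windows and were made with the results known.

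The gene nearest to a difference in response between the genotypes was AT1G64370, with a log2 fold change of 1.499 in Col-0 and 0.24 in gtl1-4 (limma, adjusted p of the difference 0.181).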
